A study of Homo sapiens with 8 samples.

Results

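The antioxidant genes described here are 35 human genes of the NRF2 pathway, the thioredoxin system and the glutathione system, measured in HEK293T cells that overexpressed KCNQ3 and in normal control cells. They were taken by name from a list, and deposited transcript counts were summed for each gene. No measured value entered the rule, but the list was chosen with earlier results of these data known. Shares of the list set beside shares of all genes are therefore descriptive only. All 35 had counts, among 34290 genes with a count in any library, and all 35 passed the filter on low counts. The list held the transcription factor NFE2L2 (NRF2) and its inhibitor KEAP1, 5 genes of the thioredoxin system, 6 peroxiredoxins and 5 genes of glutathione synthesis and recycling. It also held 7 glutathione peroxidases and transferases, SOD1 and CAT, 3 genes of the pentose phosphate pathway and 5 genes of heme, iron and quinone handling.

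NRF2 is a transcription factor that the adaptor protein KEAP1 marks for degradation while a cell is unstressed. Oxidants and electrophiles modify cysteines of KEAP1, NRF2 then escapes degradation, and it binds antioxidant response elements beside genes of detoxification and of thioredoxin and glutathione metabolism. Peroxiredoxins reduce peroxides at the expense of thioredoxin and glutathione peroxidases at the expense of glutathione, and NADPH, made in part by the pentose phosphate pathway, regenerates both reductants.

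HEK293T is a line of human embryonic kidney cells widely used for transfection, and KCNQ3 encodes a subunit of a voltage-gated potassium channel. RNA was sequenced in 4 libraries labelled as KCNQ3 overexpression and in 4 libraries labelled as controls with normal cells. The overexpressing cells received a plasmid carrying the tagged coding sequence of human KCNQ3 through the reagent FuGene HD, and RNA was taken 48 hours later. The transfection protocol is worded alike for both groups, and the sources used here do not state what, if anything, was added to control cells. The submitters describe 4 biological replicates per condition without saying whether each had its own culture, so the spread behind a p-value may be technical.

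Libraries held 24738542 to 27542588 counts in the overexpression group and 24020097 to 30734915 in the control group. KCNQ3 had 573, 657, 735 and 771 counts per 1000000 counts of the library (CPM, after TMM scaling, which evens out differences in composition) in the overexpression libraries, against 0.130, 0.189, 0 and 0.0795 CPM in the control libraries. Every library thus lay on the side its label gives (exact two-sided permutation test over 70 assignments, p = 0.0286, the smallest that 4 against 4 allows). All 7 marker genes listed for HEK293T were detected. They summed to 797 to 883 CPM in overexpression libraries and 840 to 998 CPM in control libraries, mostly VIM. Of 6 fibroblast markers, COL1A2 and DCN had at most 3 counts in any library, and the list summed to 15.4 to 19.3 CPM in overexpression libraries and 16.4 to 19.0 CPM in control libraries, mostly COL1A1. Of 5 blood markers, PTPRC, CD3E, LYZ and HBB had at most 3 counts in any library, and HBA1 had 8 to 13 counts in overexpression libraries and 4 to 13 in control libraries. Mitochondrial genes held 4.82% to 5.84% of counts in overexpression libraries and 3.99% to 5.59% in control libraries. In bulk RNA, fewer cells with a transcript and less of it per cell cannot be told apart.

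None of the 35 antioxidant genes passed the threshold of 0.05 after Benjamini-Hochberg adjustment of edgeR's quasi-likelihood p-values over 19280 genes, where 58 genes, or 0.301%, passed (0.109% higher and 0.192% lower). The smallest adjusted p among them in that edgeR test was 0.0643, for NQO1. At an unadjusted p under 0.05, 16 of the 35 were counted, which is 45.7% against 19.4% of all genes tested. Of these, 12 were higher, a direction that 9.92% of all genes took at that p, and 4 were lower, as were 9.46% of all genes. DESeq2 called 6 of the 35, namely NFE2L2, TXN2, PRDX2, GSTP1, SOD1 and NQO1, and called 9.9% of the 13655 genes to which it gave an adjusted p. The limma fits of the deposited TPM values called 0. The fitted log2 fold change was above 0 for 27 of the 35 genes, or 77.1%, against 52.6% of all genes tested. Their median log2 fold change was 0.08, against 0.01 over all genes tested. For 32 of the 35, the fitted change was smaller than 1.2-fold in either direction, and the exceptions were NQO1, GSS and OSGIN1. Standard errors on the log2 scale had a median of 0.06 over the 35 genes.

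**Figure D1:**
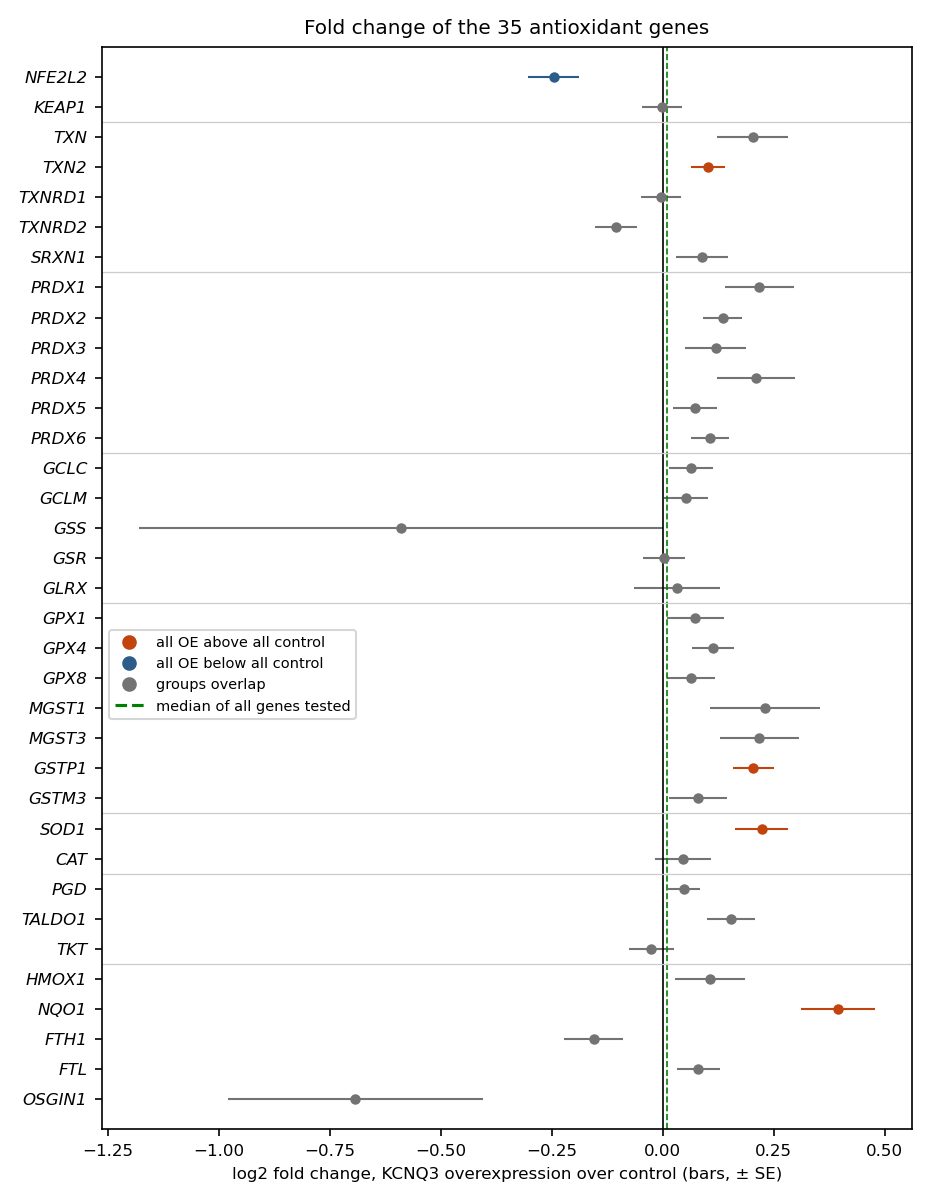
log2 fold change, KCNQ3 overexpression over control, of each of the 35 antioxidant genes with its standard error, from edgeR with 4 libraries a group; horizontal lines separate the roles. NQO1 stands furthest to the right at 0.39, NFE2L2 has its 4 overexpression libraries below all control libraries, and GSS and OSGIN1 have the widest bars.

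The groups did not overlap for 5 of the 35 genes, or 14.3%, against 11.6% of all genes tested. NQO1, GSTP1, SOD1 and TXN2 had all 4 overexpression libraries above all 4 control libraries, where 5.84% of all genes did. NFE2L2 had all 4 below, where 5.77% of all genes did. The share of non-overlapping genes was thus near that of all genes. With RLE size factors the SOD1 groups overlapped, and with no scaling factor NFE2L2 overlapped and PRDX2 did not. Summed over the 35 genes, the level was 4606, 4982, 5042 and 4918 CPM in the overexpression libraries, against 4500, 4825, 4623 and 4639 CPM in the control libraries. Every control library except replicate 1 exceeded replicate 1 of the overexpression group, so the summed levels overlapped.

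**Figure D2:**
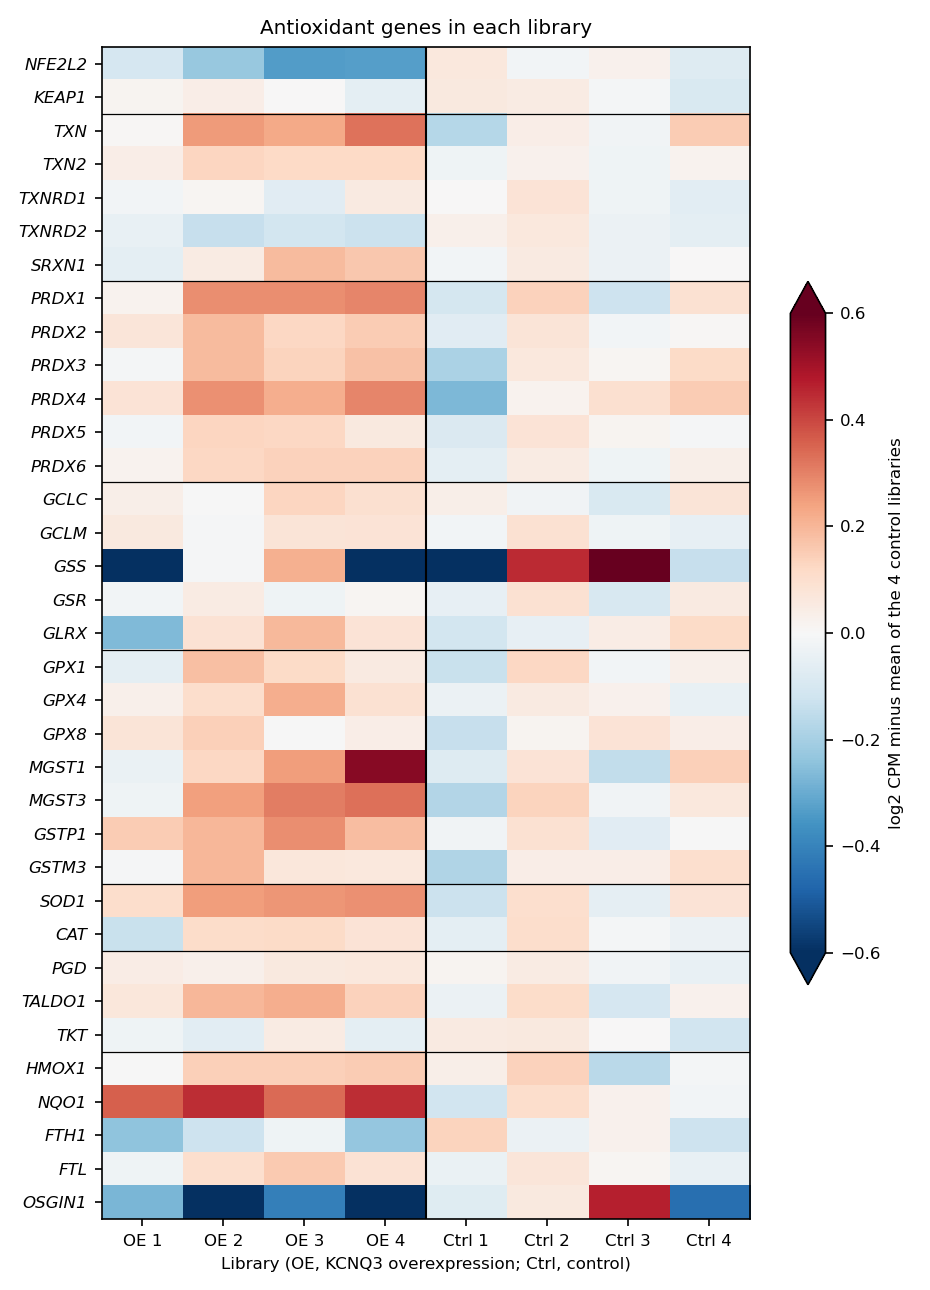
log2 CPM of each antioxidant gene in each library, minus the mean of its 4 control libraries; colours are capped at 0.6 in both directions. Peroxiredoxins, transferases and SOD1 are redder in overexpression replicates 2, 3 and 4 than in replicate 1, while NQO1 is red and NFE2L2 blue in all 4.

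NFE2L2 (ENSG00000116044, chr2:177227595-177392697 on the minus strand of GRCh38), which encodes NRF2, had 62.0, 56.6, 52.6 and 52.9 CPM in the overexpression libraries, against 69.5, 65.5, 67.7 and 63.0 CPM in the control libraries. The highest overexpression library, replicate 1, lay just below the lowest control library, replicate 4. Its mean was 56.0 ± 4.40 CPM with overexpression and 66.4 ± 2.79 CPM in controls (SD, n = 4 each). The log2 fold change was -0.25 with a standard error of 0.06 (edgeR's quasi-likelihood test, Benjamini-Hochberg adjusted p = 0.0807). Without overexpression replicate 1 the gene passed, at a log2 fold change of -0.30 (edgeR, adjusted p = 0.0313), while 378 genes, or 1.94%, passed in that fit. Over 17 alternatives in all, the log2 fold change of NFE2L2 ran from -0.30 to -0.22 and the adjusted p, from edgeR, DESeq2 or limma, from 0.00199 to 0.293. Some of its counts may belong to neighbours, since AC019080.1 shares exon sequence on the same strand and held 10.6% as many counts. AGPS overlaps an NFE2L2 exon by 54 bases on the opposite strand, and the sources used here do not say whether counting used strand.

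KEAP1 (ENSG00000079999, chr19:10486120-10503741, minus strand) encodes the adaptor that holds NRF2 down. It had 51.9, 52.8, 51.4 and 49.3 CPM in overexpression libraries, against 53.4, 53.1, 50.9 and 48.2 CPM in control libraries. The overexpression libraries lay inside the control range, with a log2 fold change of -0.00 and a standard error of 0.04 (edgeR, Benjamini-Hochberg adjusted p = 0.993).

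**Figure D3:**
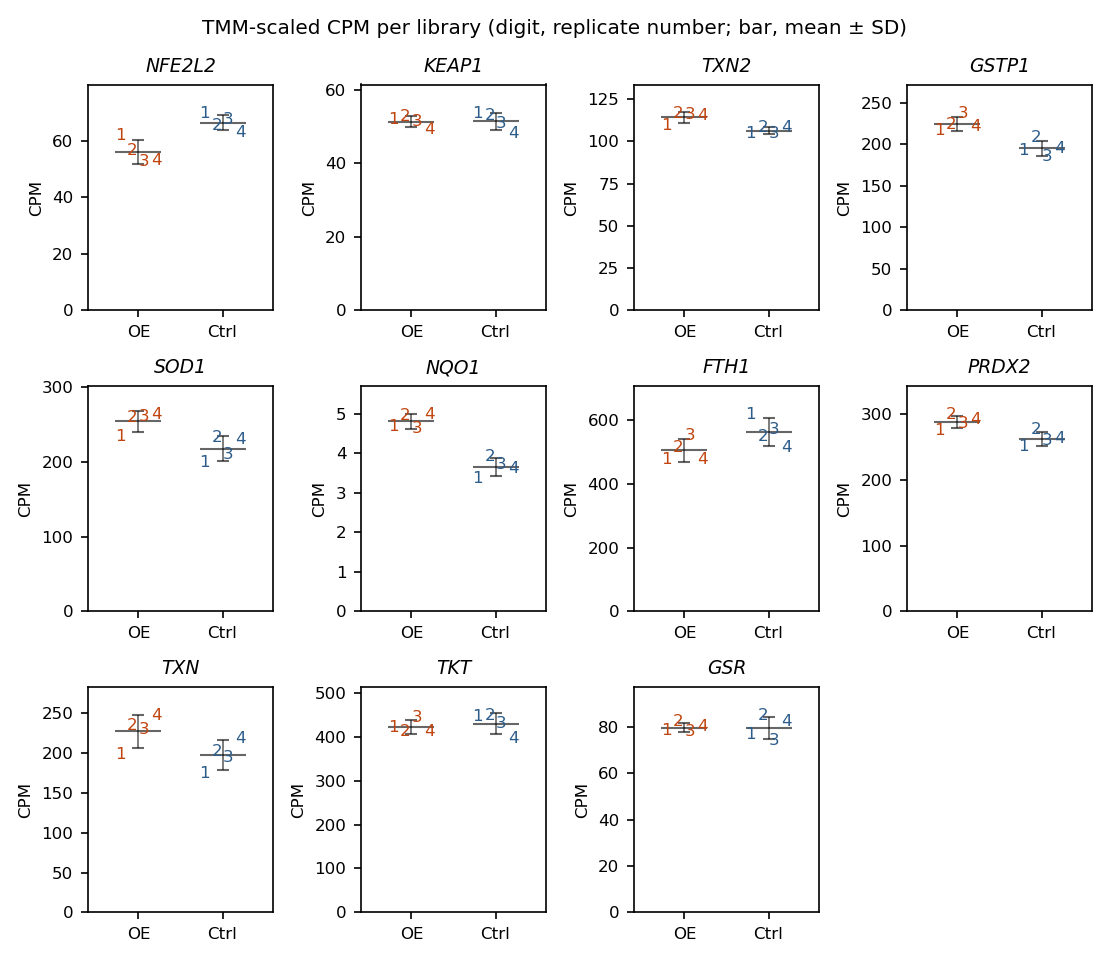
TMM-scaled CPM in each library for 11 antioxidant genes, overexpression left and control right, with digits marking replicate numbers and bars the mean ± SD of 4 libraries; every axis starts at 0. NQO1, GSTP1, SOD1 and TXN2 have all overexpression libraries above all controls, NFE2L2 has them all below, and the other 6 overlap.

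NQO1 (ENSG00000181019, chr16:69706996-69726951, minus strand), a quinone reductase widely used as a readout of NRF2, had 4.69, 4.96, 4.63 and 4.98 CPM in overexpression libraries. Control libraries had 3.37, 3.94, 3.72 and 3.62 CPM. All overexpression libraries lay above all controls, with means of 4.81 ± 0.182 CPM and 3.66 ± 0.234 CPM (SD, n = 4 each). The log2 fold change was 0.39 with a standard error of 0.08, which is 1.31-fold, and missed the threshold (edgeR, Benjamini-Hochberg adjusted p = 0.0643). By DESeq2 it passed at an adjusted p of 0.0405, and over the 17 alternatives its log2 fold change ran from 0.35 to 0.52 and its adjusted p from 0.0405 to 0.286. NQO1 was among the least abundant of the 35 genes per length, at 4.68 ± 0.662 TPM with overexpression and 3.27 ± 0.637 TPM in controls.

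The most abundant gene of the 35 was FTH1 (ENSG00000167996, chr11:61959718-61967660, minus strand), the heavy chain of the iron store ferritin and an NRF2 target. It had 476, 516, 553 and 479 CPM in overexpression libraries, against 617, 549, 573 and 515 CPM in control libraries. Overexpression replicates 2 and 3 lay within the control range, and the log2 fold change was -0.16 with a standard error of 0.07 (edgeR, Benjamini-Hochberg adjusted p = 0.231). FTL, the ferritin light chain, had the opposite sign, with a log2 fold change of 0.08 and overlapping groups. FTH1 has 25 annotated pseudogenes, which held 32.7% of the summed counts of gene and copies in the overexpression group and 32.7% in the control group. Pseudogene shares of FTL were 11.2% with overexpression and 11.3% in controls. Because reads shared by such copies were divided by the authors' estimate, the levels of both ferritin genes are uncertain. HMOX1, the heme oxygenase that NRF2 and BACH1 control, averaged 9.50 ± 0.479 CPM with overexpression and 8.82 ± 0.760 CPM in controls, with overlapping groups. OSGIN1, an oxidative stress-induced growth inhibitor, was under 1 CPM in every library, and its log2 fold change of -0.69 had a standard error of 0.29.

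Upstream sequence was examined for 27 of the 35 genes, those matched by symbol in a table of RefSeq promoters on GRCh38.p14, as the 250 bases before each listed start. The core of the antioxidant response element, TGACNNNGC, was searched on both strands. It was found in 6 of 37 windows, those of PGD, GCLM, GSTP1, TXNRD1 (in both of its windows) and KEAP1, and 10.9% of 35116 windows of all genes held it. The windows of GSTP1, GCLM, TXNRD1 and PGD are shown because they hold the motif in 4 different roles, in the gene's 5′ to 3′ direction with the motif in capitals. GSTP1 is shown over its whole window, chr11:67583562-67583811 on the plus strand, where the motif starts 66 bases before the start. GENCODE 29 places an exon of a longer GSTP1 transcript over 217 of these bases. The others carry 20 bases on either side of the motif. GCLM lies at chr1:93909436-93909484 (minus strand, motif read on the opposite strand), TXNRD1 at chr12:104215660-104215708 (plus strand) and PGD at chr1:10398843-10398891 (plus strand, motif read on the opposite strand).
GSTP1: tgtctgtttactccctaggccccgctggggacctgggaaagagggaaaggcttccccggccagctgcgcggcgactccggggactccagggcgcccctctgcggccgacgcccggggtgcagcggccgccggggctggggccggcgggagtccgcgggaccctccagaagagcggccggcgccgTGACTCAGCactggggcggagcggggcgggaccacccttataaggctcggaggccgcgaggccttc
GCLM: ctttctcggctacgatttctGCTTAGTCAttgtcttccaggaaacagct
TXNRD1: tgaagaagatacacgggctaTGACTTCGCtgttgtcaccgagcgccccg
PGD: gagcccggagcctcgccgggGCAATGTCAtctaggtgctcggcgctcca
Of the 37 windows, 7 were clear of GENCODE 29 exons, 1 of them with the motif, so most windows were in part exonic for some annotated transcript. The windows of NFE2L2 and NQO1 held no match; that of NQO1 and 1 of the 2 of NFE2L2 lay wholly over annotated exons. A lack of match says only that these letters are absent from the window. A match describes the letters and not binding. Among these 4 genes, the log2 fold changes were 0.20 for GSTP1, 0.05 for GCLM, -0.00 for TXNRD1 and 0.05 for PGD, so motif-bearing members ranged from no fitted difference to the non-overlapping GSTP1.

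Among the 5 genes of the thioredoxin system, TXN2 (ENSG00000100348, chr22:36467036-36482030, minus strand), the mitochondrial thioredoxin, had 109, 116, 116 and 116 CPM in overexpression libraries. Control libraries had 105, 108, 105 and 108 CPM. The groups did not overlap, although replicate 1 of the overexpression group came close to the highest control, and the log2 fold change was 0.10 with a standard error of 0.04 (edgeR, Benjamini-Hochberg adjusted p = 0.180). The cytosolic thioredoxin TXN (ENSG00000136810, chr9:110243811-110256640, minus strand), the most abundant of the 5 per length, had 198, 235, 230.0 and 246 CPM in overexpression libraries. Control libraries had 175, 202, 194 and 219 CPM. Overexpression replicate 1 lay below control replicates 2 and 4, and the log2 fold change was 0.20 with a standard error of 0.08 (edgeR, Benjamini-Hochberg adjusted p = 0.207). The thioredoxin reductases did not share that sign. TXNRD1, the cytosolic enzyme, averaged 120.3 ± 4.35 CPM with overexpression and 121 ± 5.20 CPM in controls. TXNRD2, the mitochondrial enzyme, averaged 25.3 ± 0.745 CPM with overexpression and 27.3 ± 1.07 CPM in controls. SRXN1, the sulfiredoxin that repairs overoxidised peroxiredoxins, averaged 31.7 ± 2.48 CPM with overexpression and 29.9 ± 0.822 CPM in controls.

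All 6 peroxiredoxins had a log2 fold change above 0, between 0.07 for PRDX5 and 0.22 for PRDX1, with a median of 0.13, and none passed the test. Their groups overlapped in every case. PRDX2 (ENSG00000167815, chr19:12796820-12801859, minus strand), a cytosolic peroxiredoxin and the most abundant of the 6 per length, had 276, 299, 286 and 291 CPM in overexpression libraries. Control libraries had 250.1, 276, 259 and 263 CPM. Only overexpression replicate 1 and control replicate 2 met, at nearly the same value, and the log2 fold change was 0.13 with a standard error of 0.04 (edgeR, Benjamini-Hochberg adjusted p = 0.144). DESeq2 gave PRDX2 an adjusted p of 0.0235, within a range of 0.0235 to 0.750 over the 17 alternatives. PRDX1, the cytosolic peroxiredoxin induced by NRF2, averaged 239.6 ± 20.7 CPM with overexpression and 206 ± 19.2 CPM in controls, and MMACHC overlaps its exons on the opposite strand. PRDX4, the peroxiredoxin of the endoplasmic reticulum, averaged 197 ± 12.7 CPM with overexpression and 170.1 ± 21.0 CPM in controls. The mitochondrial PRDX3 had a log2 fold change of 0.12, and PRDX6, which draws on glutathione rather than thioredoxin, one of 0.11.

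Genes of glutathione synthesis and recycling lay close to 0, apart from GSS. The catalytic and modifier subunits of glutamate-cysteine ligase, GCLC and GCLM, had log2 fold changes of 0.06 and 0.05 with overlapping groups. GSR (ENSG00000104687), the reductase that regenerates glutathione with NADPH, had 78.5, 82.2, 78.0 and 80.1 CPM in overexpression libraries, against 76.7, 84.7, 74.3 and 82.4 CPM in control libraries. Overexpression libraries lay inside the control range, and the log2 fold change was 0.00 with a standard error of 0.05 (edgeR, Benjamini-Hochberg adjusted p = 0.981). GLRX, a glutaredoxin, averaged 12.0 ± 1.56 CPM with overexpression and 11.8 ± 0.811 CPM in controls. GSS, glutathione synthetase, had 7.13, 14.02, 16.3 and 8.17 CPM in overexpression libraries, against 5.06, 19.2, 31.8 and 12.8 CPM in control libraries. Replicates of GSS differed several-fold within both groups, and its log2 fold change of -0.59 had a standard error of 0.59. Counts of GSS were spread over many annotated transcripts in shares that differed between libraries; GSS-218, for example, took 0%, 0%, 41.3% and 0% of them in overexpression libraries and 0%, 53.5%, 58.5% and 0% in control libraries. Identifiers absent from the annotation used for the sum entered no gene, and their part in the spread of GSS was not tested.

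All 7 glutathione peroxidases and transferases had a log2 fold change above 0, from 0.06 for GPX8 to 0.23 for MGST1, with a median of 0.11, and none passed the test. GSTP1 (ENSG00000084207, chr11:67583595-67586656, plus strand), which conjugates glutathione to electrophiles, had 217, 224, 236 and 222 CPM in overexpression libraries. Control libraries had 192, 208, 186 and 195 CPM. The groups did not overlap, with means of 225 ± 8.36 CPM and 195 ± 9.34 CPM (SD, n = 4 each). The log2 fold change was 0.20 with a standard error of 0.05, and missed the threshold (edgeR, Benjamini-Hochberg adjusted p = 0.0719). DESeq2 gave GSTP1 an adjusted p of 0.000659, within a range of 0.000659 to 0.332 over the 17 alternatives. GPX4, which reduces lipid peroxides in membranes, averaged 211 ± 11.5 CPM with overexpression and 195 ± 6.33 CPM in controls. The membrane-bound MGST3 averaged 72.5 ± 7.83 CPM with overexpression and 62.4 ± 5.68 CPM in controls. GPX1, GPX8 and GSTM3 had log2 fold changes between 0.06 and 0.08, and pseudogenes held 15.2% of the summed counts of GPX1 and its copies with overexpression and 15.1% in controls.

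SOD1 (ENSG00000142168, chr21:31659622-31668931, plus strand), the copper and zinc superoxide dismutase of the cytosol, had 233, 259, 261 and 263 CPM in overexpression libraries. Control libraries had 199, 233, 209 and 229.6 CPM. The groups were separate by a narrow margin, overexpression replicate 1 lying just above control replicate 2. Means were 254 ± 13.8 CPM with overexpression and 218 ± 16.4 CPM in controls, and the log2 fold change was 0.22 with a standard error of 0.06 (edgeR, Benjamini-Hochberg adjusted p = 0.102). DESeq2 gave SOD1 an adjusted p of 0.00840, within a range of 0.00840 to 0.451 over the 17 alternatives. CAT, the peroxisomal catalase, averaged 36.1 ± 2.85 CPM with overexpression and 35.02 ± 1.82 CPM in controls.

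Of the pentose phosphate genes, TKT (ENSG00000163931, chr3:53224707-53256052, minus strand), a transketolase, had 422, 411, 444 and 412 CPM in overexpression libraries. Control libraries had 446, 447, 431 and 396 CPM. The overexpression libraries lay inside the control range, with a log2 fold change of -0.03 and a standard error of 0.05 (edgeR, Benjamini-Hochberg adjusted p = 0.831). PGD, the dehydrogenase that makes NADPH, averaged 208 ± 1.97 CPM with overexpression and 201.5 ± 5.84 CPM in controls. TALDO1, transaldolase, averaged 125 ± 5.92 CPM with overexpression and 113 ± 7.12 CPM in controls, with overlapping groups.

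Levels per length, as the authors' TPM summed per gene, ranked FTH1 first, at 951 ± 65.0 TPM with overexpression and 1102 ± 132 TPM in controls. PRDX2 followed at 472 ± 17.6 TPM with overexpression and 459 ± 16.2 TPM in controls, with TXN at 486 ± 30.2 TPM and 437 ± 24.9 TPM and GSTP1 at 475 ± 19.1 TPM and 429 ± 26.9 TPM in the same groups. These 3 stood in a different order in each group. FTL and GPX4 came next, at 416 ± 13.4 and 424 ± 27.5 TPM with overexpression and 407 ± 24.3 and 398 ± 34.8 TPM in controls, and did not differ from each other beyond that spread. The 6 peroxiredoxins ranked between places 2 and 11 of the 35. At the low end, OSGIN1 had 0.214 ± 0.0817 TPM with overexpression and 0.369 ± 0.108 TPM in controls. NFE2L2 had 38.7 ± 3.27 TPM with overexpression and 45.8 ± 3.82 TPM in controls, and KEAP1 32.3 ± 1.87 TPM with overexpression and 33.2 ± 3.04 TPM in controls. On the TPM scale the groups did not overlap for SOD1 and for PRDX4, whose CPM overlapped, which is 2 of 35 against 6.94% of all genes tested, and the median log2 fold change was 0.03 against -0.03 over all genes.

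The authors' estimate divided a gene's counts among annotated transcripts in ways that differed sharply between libraries. For SOD1, the processed transcript SOD1-203 took 99.9%, 99.8%, 3.17% and 99.9% of the counts in overexpression libraries and 99.9%, 99.9%, 100% and 99.9% in control libraries, while overexpression replicate 3 gave 96.8% to the protein-coding SOD1-201. The summed level of SOD1 did not set replicate 3 apart in CPM. In TPM, which depends on the length of the transcript chosen, SOD1 had 275 ± 95.0 with overexpression and 203 ± 12.0 in controls. For FTH1, the retained-intron transcript FTH1-211 took 80.6% ± 0.78 of counts with overexpression and 81.1% ± 1.41 in controls. NFE2L2-201, one of 2 main protein-coding transcripts of NFE2L2, took 91.4%, 86.5%, 67.8% and 58.4% in overexpression libraries and 87.3%, 97.5%, 34.5% and 95.1% in control libraries. TXNRD1-214 took 0.16%, 84.7%, 1.14% and 88.3% of TXNRD1 counts in overexpression libraries and 4.07%, 96.3%, 4.73% and 0% in control libraries. Of 242 transcripts of the 35 genes with a count, 118 were tested and 0 were called by edgeR, with 6 at an unadjusted p under 0.05. Of all transcripts tested, 0.0127% were called. The transcript test also made no calls on simulated data with known answers, so its 0 does not show that transcript levels were alike. Transcript usage could be tested for 27 of the genes and 0 were called, with 1, FTH1, at an unadjusted p under 0.05, beside 0.383% of all genes in that test.

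**Figure D4:**
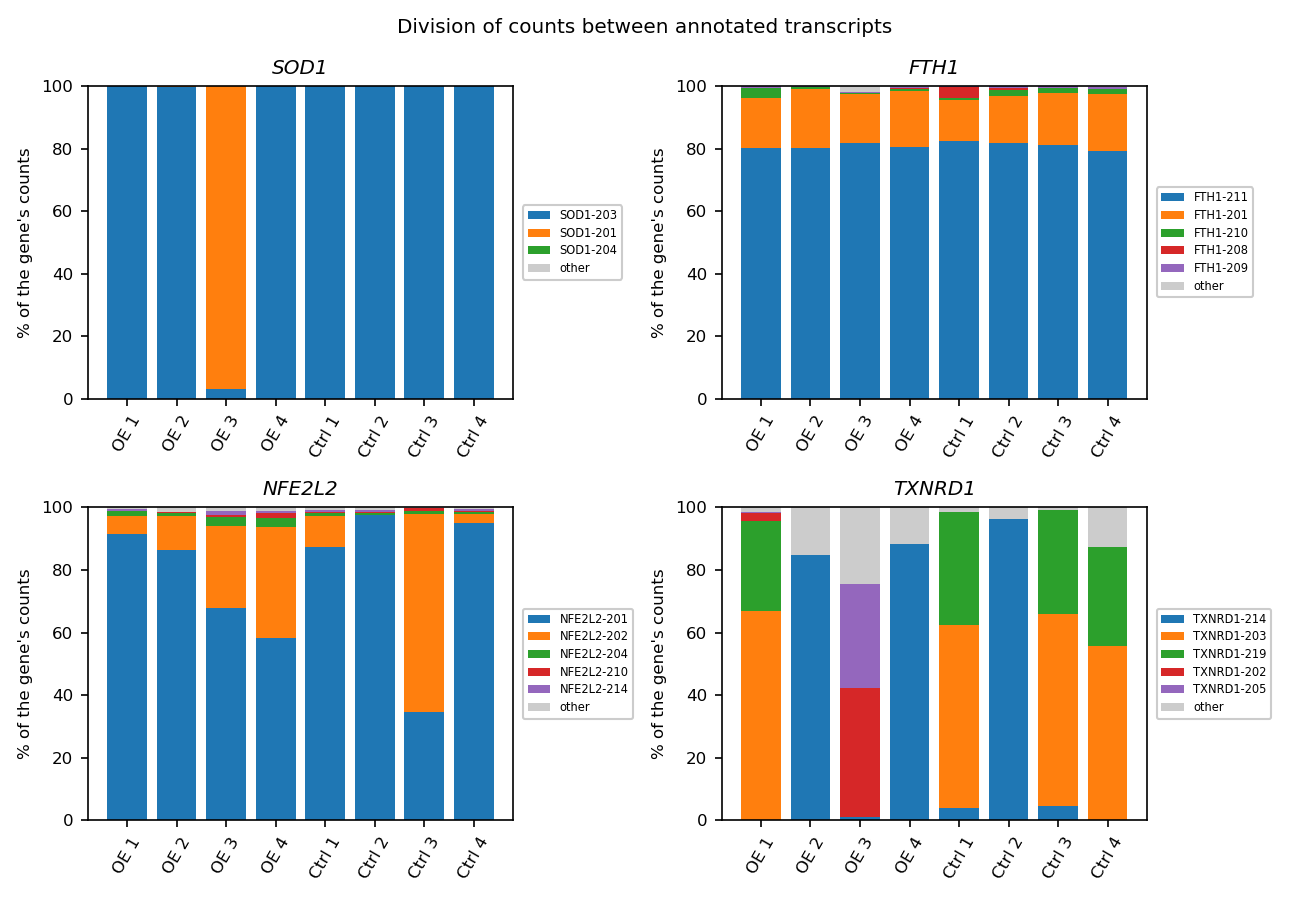
Percent of a gene's estimated counts assigned to each annotated transcript in each library, for SOD1, FTH1, NFE2L2 and TXNRD1; colours stand for transcripts and grey for all others. SOD1 differs in overexpression replicate 3 alone, FTH1 is alike in all 8 libraries, and TXNRD1 changes between libraries of both groups.

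Fold changes over all genes moved with transcript length. Genes tested were split into 3 classes of nearly equal size by the length of the transcript with most counts. The median log2 fold change of all genes was 0.06 in the short class (up to 1708 bases, 66.4% above 0), 0.01 in the middle class and -0.04 in the long class (over 3595 bases, 37.5% above 0). Of the antioxidant genes, 17 were in the short class, 15 in the middle class and 3 in the long class. Their medians there were 0.12, 0.04 and 0.05, with 16, 9 and 2 genes above 0. The peroxiredoxins other than PRDX6 and all 7 glutathione peroxidases and transferases were in the short class, NQO1 and NFE2L2 in the middle class. The part of transcript length in the fold changes of the antioxidant genes was not tested.

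**Figure D5:**
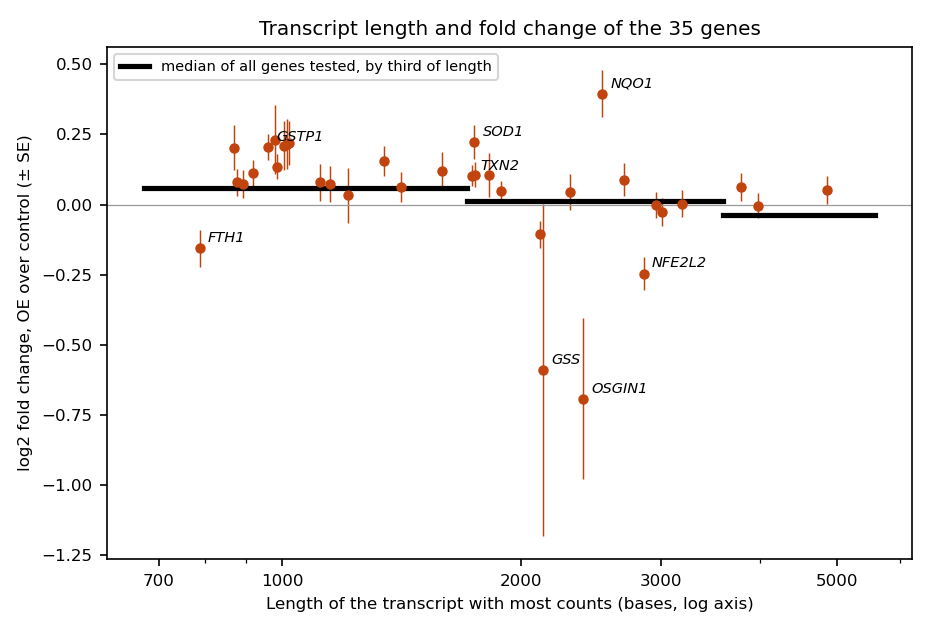
log2 fold change with standard error of the 35 antioxidant genes against the length of the transcript with most counts in bases, on a log axis; black bars give the median over all genes tested in each of the 3 length classes. Of the 17 genes in the short class, 16 lie above 0, as do 66.4% of all genes there. In the middle class, NQO1 and NFE2L2 lie apart from the median, and GSS and OSGIN1 lie further from it with the widest bars.

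Overexpression replicate 1 stood apart within its group. It was the lowest of the 4 for 23 of the 35 genes, and the median deviation of the 35 genes in it, on the log2 scale from each gene's mean over all 8 libraries, was -0.03, against 0.06 to 0.09 in the other overexpression libraries. It also stood apart on the first principal component of log2 CPM over genes with a mean of at least 50 counts, which held 19.7% of the variance. There, overexpression libraries 1 to 4 lay at -3.69, -26.2, -18.1 and -20.0, and control libraries between 11.5 and 21.1. On the second component, with 16.1%, overexpression replicate 1 lay at 1.39. The libraries apart from their groups there were overexpression replicate 4 at -23.6 and control replicate 1 at -31.3. Among controls, replicate 1 was the lowest for 16 genes and replicate 2 the highest for 22. Without overexpression replicate 1, 17 of the 35 genes had groups that did not overlap, 15 higher and 2 lower (NFE2L2 and TXNRD2), against 22.3% of all genes tested. Without control replicate 2 the number was 10, against 15.8% of all genes. Both libraries were singled out by their levels of the same genes, so the added separation is not independent of that choice. Leaving out any other library gave 5, or 7 without control replicate 4.

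Other genes of the pathway were read from lists, which were also chosen with earlier results of these data known. Of 17 tested partners and regulators of NRF2, 0 were called and 13 lay below 0 on the log2 scale, with a median of -0.07. The share above 0 was 23.5%, against 52.6% of all genes tested and 37.5% of all genes in the long class of transcripts. The part of transcript length in the fold changes of this list was not tested. BTRC, a ubiquitin ligase subunit that can target NRF2, averaged 50.4 ± 1.78 CPM with overexpression and 54.5 ± 0.880 CPM in controls. RXRA, a nuclear receptor that can restrain NRF2, averaged 30.1 ± 0.891 CPM with overexpression and 33.1 ± 1.47 CPM in controls. Of 18 other NRF2 targets tested, 0 were called, 9 lay above 0, and the median was 0.00. NQO2, a quinone reductase related to NQO1, averaged 35.7 ± 1.71 CPM with overexpression and 31.8 ± 1.03 CPM in controls. AKR1B1, an aldose reductase, averaged 222 ± 11.4 CPM with overexpression and 198 ± 9.86 CPM in controls.

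One gene of the lists passed. TXNIP (ENSG00000265972), which binds and inhibits thioredoxin and restrains glucose uptake, had 86.2, 81.8, 79.0 and 74.2 CPM in overexpression libraries, against 132, 122, 140 and 113 CPM in control libraries. Every overexpression library lay well below every control library, and TXNIP fell by 0.66 on the log2 scale with a standard error of 0.07 (edgeR, Benjamini-Hochberg adjusted p = 0.00580). The call was lost in both limma fits of TPM, at log2 fold changes of -0.71 and -0.72 (limma, adjusted p = 0.0590 and 0.0573), and held in the 15 other alternatives at adjusted p-values of 2.67e-17 (DESeq2) to 0.0342 (edgeR without overexpression replicate 3). It was the 1 gene called among 22 tested genes of thioredoxin fold, repair and dismutation, whose median was -0.01. Of 21 other glutathione genes tested, 0 were called and the median was 0.03. The transferases GSTM2 and GSTK1 had log2 fold changes of 0.18 and 0.17, each with all overexpression libraries above all controls. CHAC1, of the same list, had all overexpression libraries below all controls, at a log2 fold change of -0.56. Groups thus did not overlap for 3 of these 21 genes, or 14.3%, against 11.6% of all genes tested. Of 17 genes of NADPH supply, 0 were called and the median was -0.01. MTHFD2, a mitochondrial enzyme of folate metabolism, averaged 438 ± 25.6 CPM with overexpression and 535 ± 22.8 CPM in controls, without overlap (edgeR, Benjamini-Hochberg adjusted p = 0.0564). Groups did not overlap for 2 of these 17 genes, or 11.8%, near the share of all genes tested. The malic enzyme ME1 had a log2 fold change of -0.14. Of 13 tested genes of iron handling and heme breakdown, 0 were called and the median was 0.01. The transferrin receptor TFRC averaged 135 ± 22.3 CPM with overexpression and 100.1 ± 11.1 CPM in controls, and NCOA4, the receptor for ferritin turnover, had a log2 fold change of -0.11. Of 8 genes of selenoprotein synthesis, 0 were called and the median was -0.03. TRIT1, which modifies the selenocysteine transfer RNA, and EEFSEC, the elongation factor that delivers it, had log2 fold changes of -0.23 and -0.17. Over all genes tested the count called was 21 higher and 37 lower.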

How the data were processed

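RNA was measured by sequencing in 8 HEK293T libraries, 4 with KCNQ3 overexpression and 4 controls. Per the submitters' processing notes, StringTie 2.1.0, HISAT2 2.1.0, SAMtools 1.9, FastQC 0.11.5 and cutadapt 2.8 were used with GRCh38.p13; the sources used here give neither each tool's role nor the annotation or use of strand. Estimated counts, already whole numbers, and TPM were deposited by the authors for 227751 transcript identifiers. Of these, 205804 were joined to genes through GENCODE 29 (GRCh38, the source of the gene coordinates), and the 21947 others entered no gene. The authors' estimate decided how reads shared by isoforms or gene copies were divided. No library duplicated another (chi-square per degree of freedom of 9.72 to 18.6 over 12 within-group pairs).

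Counts summed per gene were tested with edgeR 4.0.16 in R 4.3.3 (quasi-likelihood, robust, TMM, filterByExpr with a minimum count of 10 and a minimum total of 15) and Benjamini-Hochberg adjustment over all genes at 0.05, without covariates. CPM are TMM-scaled, and errors are SD over 4 libraries. Transcripts and their usage (diffSpliceDGE) were tested likewise. Alternatives used other scalings and filters, DESeq2 1.42.0, limma 3.58.1 on log2(TPM + 1) and log2(TPM + 0.1), the replicate number as a block, counts of annotated pseudogenes added, and each library left out. The tests were tested on simulated data with known answers, where the transcript test made no calls. No gene set was tested. Members and lists were chosen with earlier results of these data known. Values in every library are given for NFE2L2, KEAP1, genes past the threshold, genes whose groups did not overlap and the most abundant gene of each role by TPM; GSS was added for its spread, after its values were seen. Of each pathway list, genes past the threshold were named, or else the 2 with the smallest p. CHAC1 was added because its groups did not overlap either. Of 128 list symbols, 127 matched; WTX, an alias of AMER1, did not.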

Additional observations from a re-analysis of the deposited data

Results flagged for a closer look

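In 6 of 70 groups of 4 libraries examined for the antioxidant genes, 1 library lay far from the other libraries of its group by Dixon's criterion, where chance gives about 3.5. In all 6 it was overexpression replicate 1, and it was low. TXN2 had 109 CPM there, against 116 to 116 CPM in the other overexpression libraries. PRDX1 had 209 CPM, with the others at 249 to 251 CPM. PRDX6 had 277 CPM, with the others at 298 to 301 CPM. SOD1 had 233 CPM, with the others at 259 to 263 CPM. CAT had 31.9 CPM, with the others at 37.0 to 37.8 CPM. HMOX1 had 8.78 CPM, with the others at 9.70 to 9.79 CPM. The flagged genes belong to the thioredoxin, peroxiredoxin, dismutase, catalase and heme roles, and none of the 6 flags fell in a control library. The reason was not tested.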

How the results depend on the processing

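The count of antioxidant genes past the threshold was 0 under every alternative except DESeq2, which called 6, and the fit without overexpression replicate 1, which called 1 (NFE2L2), so leaving out 1 library gave 0 to 1. The median log2 fold change of the 35 genes stayed above 0 under every alternative run. Genes past the threshold over the whole table numbered 58 in the main test, 35 with no scaling factor, 1352 by DESeq2, 7 by limma on log2(TPM + 1), 7 on log2(TPM + 0.1), and 8 to 378 with 1 library left out, of which 194 was without control replicate 4. Antioxidant genes without overlap numbered 5 in the main test, 4 with RLE or DESeq2 size factors (SOD1 was lost), 2 on either TPM scale and 5 to 17 with 1 library left out. The causes were not tested.

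DESeq2 called 3 of 18 other NRF2 targets, 3 of 22 genes of thioredoxin fold, repair and dismutation and 3 of 21 other glutathione genes. It called 1 of 17 genes of NADPH supply, 1 of 13 of iron handling and heme breakdown and 1 of 8 of selenoprotein synthesis. These list sizes are the numbers tested by edgeR. Over the whole table, DESeq2 called 9.9% of the 13655 genes to which it gave an adjusted p. TXNIP was not called on either TPM scale, which left 0 in its list. With 1 library left out, the calls ran from 0 to 1 for other NRF2 targets, other glutathione genes and NADPH supply. The log2 fold change of GSR turned to -0.00107 with RLE size factors, -0.0143 with no scaling, -0.00317 with no filter and -0.00129 by DESeq2, and ran from -0.0309 to 0.0322 with 1 library left out. That of KEAP1 ran from -0.0347 to 0.0141 with 1 library left out.

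Deviations of same-numbered libraries correlated between -0.0416 and 0.0311, so that measure showed no pairing of the samples by number. Among the 35 antioxidant genes, replicate 1 was the lowest for 23 in the overexpression group and for 16 in the control group. Pairing within these genes was not tested. With the number as a block, 86 genes and 0 antioxidant genes passed, 30 of the 58 genes of the main test among them. The block took the edgeR adjusted p of TXN from 0.207 to 0.0596 and of SOD1 from 0.102 to 0.0596. It took that of NQO1 from 0.0643 to 0.0786 and of GSTP1 from 0.0719 to 0.084. OSGIN1 and GSS had the largest standard errors of the 35 genes, and with 4 libraries a group a fitted difference below the threshold does not show that levels were alike.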
